A study of Homo sapiens with 30 samples.

Results

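The final off-target list for the ND4 editor held 83 nuclear regions, out of 1949 regions listed for 4 editors, and was the shortest of the lists. Every region of that list was taken as a member, and none was left out. The ND5.1 list held 539 regions, that of ND5.3 held 611 and that of ND6 held 716. The assay was Detect-seq, which labels deoxyuridine in genomic DNA, the product left when a cytosine is deaminated, enriches the labelled fragments and reads their positions. The cells were HEK293T, a transformed human embryonic kidney line that takes up plasmids readily.

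Of the 30 libraries in the series, 10 belonged to the ND4 editor, and each of the 10 named the ND4 list in its label. They fell into 7 groups, 3 of 2 libraries and 4 of 1 library. ND4-All-PD (2 libraries) was the pulldown of cells given the editor in the orientation L1397N, and ND4-All-Input (1 library) was labelled WGS and had the same editor without pulldown. Lipo2000-ND4-All-PD (2 libraries) was also labelled with L1397N, and L1397C-ND4-All-PD (2 libraries) carried the orientation L1397C. Dead-ND4-All-PD (1 library) carried L1397N with dead DddA. DddA.N_ND4R_MTS (1 library) lacked the left TALE array and ND4L_DddA.C_MTS (1 library) lacked the right one, each with an added MTS, a mitochondrial targeting signal. For ND5.3, one of the editors compared with ND4, the only libraries were pulldowns titled L1397C. No ND5.1 or ND6 library had that title, so ND5.3 is not a like comparator in orientation. The labels do not say whether replicate libraries came from separate cultures, and which of the 10 libraries the list pools is not stated in any source used here. The list carries no value per library, so depth is unknown and no error between replicates could be computed. All intervals in the text are 95% intervals over regions and cover counting error only.

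A DdCBE is a base editor for mitochondrial DNA. It joins each part of DddA, a bacterial deaminase that acts on double-stranded DNA, to a TALE array that reads one side of the target, and a mitochondrial targeting signal brings both parts to the organelle. The parts form an active enzyme when they meet, and DddA prefers a cytosine that follows a thymine. MT-ND4, the gene after which the editor is named, encodes a subunit of respiratory complex I. Work on these editors has separated nuclear off-targets that depend on the sequence read by a TALE array from those that do not. The file puts each region in a class named IND, IND.Extend, DL or DR, and does not define these names or say how classes were assigned.

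The sequences of 4 ND4 regions are shown because they lie in windows from 250 bases before to 50 bases after a transcription start in a RefSeq table on GRCh38.p14, the only sequence used here. They show which letters a listed region begins and ends with. The listed region is in capitals within its flanks, 5′ to 3′ on the strand given in the list, and coordinates count from 1.

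SLC30A5, class IND, chr5:69093805-69093830, minus strand: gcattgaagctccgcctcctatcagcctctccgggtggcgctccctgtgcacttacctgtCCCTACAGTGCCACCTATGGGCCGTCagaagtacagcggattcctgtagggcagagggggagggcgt
PPM1L, class IND.Extend, chr3:160842037-160842074, minus strand: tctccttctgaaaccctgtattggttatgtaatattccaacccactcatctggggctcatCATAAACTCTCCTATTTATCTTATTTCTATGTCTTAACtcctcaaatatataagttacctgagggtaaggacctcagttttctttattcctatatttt
DNAJC2, class IND.Extend, chr7:103344948-103344980, plus strand: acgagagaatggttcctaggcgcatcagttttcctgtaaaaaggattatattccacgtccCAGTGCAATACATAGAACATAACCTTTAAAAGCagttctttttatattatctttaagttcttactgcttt
SMIM30, class IND.Extend, chr7:113118630-113118653, minus strand: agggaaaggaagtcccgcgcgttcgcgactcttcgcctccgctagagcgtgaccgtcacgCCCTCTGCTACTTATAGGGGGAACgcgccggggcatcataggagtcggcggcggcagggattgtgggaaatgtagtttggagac

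All 4 regions began and ended with C on the listed strand. With starts counted from 0, this held for 0 of the 4. Counting from 1 was chosen because region ends then fall on C, so counts of C at the ends do not test that choice. The region before SLC30A5, a zinc transporter gene, held 11 C, of which 2 followed a T, and its first C followed a T. The region before a start inside PPM1L, a protein phosphatase gene, held 9 C, 6 of them after a T, and its first C also followed a T. The region before DNAJC2, a ribosome-associated chaperone gene, held 7 C, none after a T, and the C at its start followed a C. The region before SMIM30, which encodes a small membrane protein, held 7 C, 1 of them after a T, and its first C followed a G. GC content was 65.4%, 26.3%, 33.3% and 54.2% in the same order.

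Because 4 regions are few, the same count was made over the 49 distinct intervals, from ND4, ND5.1 or ND6, that lay in such windows. Both ends were C in 38 of 38 intervals of class IND, 9 of 9 of class IND.Extend and 1 of 2 of class DL. The 2 DL intervals, from ND6, had 19 and 24 bases and so were not the listed regions, which are 11 bp wide in that class. With starts counted from 0, both ends were C in 24 of 38, 5 of 9 and 1 of 2. The 5′-most C followed a T in 37 of the 38 of class IND (97.4%) and in 6 of the 9 of class IND.Extend (66.7%). Of all C in these promoter windows, 20.8% followed a T. No ND4 region of class DR or DL lay in a window.

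The ND4 list was split almost evenly between classes IND and IND.Extend, and held a larger share of DR than the ND5.1 and ND6 lists did. The ND5.3 list carries no classes. IND had 36 regions (43.4%, 32.5 to 54.7), IND.Extend 35 (42.2%, 31.4 to 53.5), DR 11 (13.3%, 6.81 to 22.5) and DL 1 (1.20%). The IND share was below that of ND5.1 by 18.4 percentage points (Fisher's exact test with Benjamini-Hochberg adjustment, as for all p-values here, adjusted p = 0.00283). Against ND5.1 the IND.Extend share was 11.2 points higher and missed the threshold of 0.05 (Fisher's exact test, adjusted p = 0.0514). Among regions that no other list held, these differences were -2.46 points for IND, which no longer passed (Fisher's exact test, adjusted p = 0.841), and -3.57 points for IND.Extend. ND6 held no IND.Extend region, and whether that class was used for ND6 is not stated. The ND4 shares of IND and IND.Extend, which differed from those of ND6 by -39.9 and 42.2 points, are therefore only described.

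DR made up 26 of 539 ND5.1 regions (4.82%) and 29 of 716 ND6 regions (4.05%). The ND4 share was higher by 8.43 points and 9.20 points (Fisher's exact test, adjusted p = 0.00748 and 0.00283). Among regions that no other list held, the DR differences were 9.47 and 6.76 points, with adjusted p = 0.135 and 0.329 by Fisher's exact test, so neither passed. DL differed in the other direction, by -11.5 points against ND6 (Fisher's exact test, adjusted p = 0.00116). Against ND5.1 the DL difference was -1.21 points (Fisher's exact test, adjusted p = 0.706). Regions held in both lists of a pair entered on both sides of these tests.

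Strength was described with the signal value, a score that the authors deposited for each region, whose normalization is not stated. It was used within a list only. The ND4 values ran from 2.62 to 36.7 with a median of 7.10, so the highest was 5.17 times the median. In ND5.1 and ND6 the highest was 13.5 and 12.5 times the median of the list, but these lists are longer and a highest value tends to rise with length. At a like fraction of each list the shares of summed signal were closer. The 9 highest ND4 regions carried 29.1%, the 54 highest of ND5.1 31.4% and the 72 highest of ND6 32.9%. The median was 5.57 in IND (3.56 to 26.8), 7.77 in IND.Extend (3.64 to 33.2) and 7.15 in DR (2.62 to 36.7), so the classes overlapped over nearly the whole range. IND.Extend carried 45.4% of the summed ND4 signal, IND 38.9%, DR 14.9% and DL 0.802%. In ND5.1, IND carried 69.9% and IND.Extend 24.5%.

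**Figure D1:**
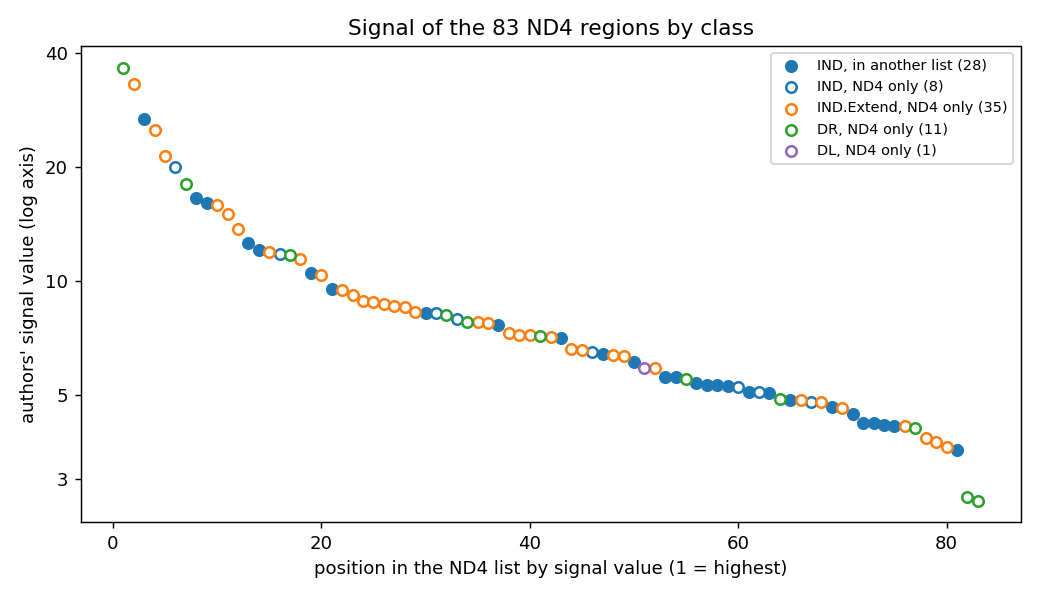
Signal value of each of the 83 ND4 regions (log axis) against its position in the list, coloured by class. Filled points are regions held in another list. The 2 highest points, at 36.7 and 33.2, are of classes DR and IND.Extend, and most filled points lie in the lower part of the range.

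The regions of highest signal were mixed in class, and 7 of the first 10 were in no other list, close to the share over the whole ND4 list (55 of 83, 66.3%). Rank 1 was a DR region in TSHZ2, a zinc finger homeobox gene, at 36.7. Rank 2 was an IND.Extend region 590 bp from PATE3, a gene of the prostate and testis expressed family (chr11:125787502-125787536), at 33.2. At rank 3 stood an IND region in the antisense gene LAMA4-AS1 (chr6:112296304-112296332), at 26.8, which ND5.3 alone of the other lists held.

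From rank 4 to rank 8 the signal went from 25.1 to 16.6. An IND.Extend region 17429 bp from the pseudogene GPR160P2 (chr17:31778374-31778407) had 25.1, and one in HCAR2, the receptor for niacin and hydroxybutyrate (chr12:122701468-122701505), had 21.4. An IND region 12669 bp from the pseudogene PHB1P3 (chr1:58986899-58986947) had 19.97 and was in no other list. An IND region 3585 bp from the pseudogene RPS13P7 (chr15:57559994-57560017) had 16.6 and was in all 4 lists. Rank 10, at 15.9, was an IND.Extend region in GALNT2, which encodes an enzyme that starts O-linked glycosylation (chr1:230145961-230145977). Of these first 10, 9 were given as minus strand.

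The list touched all 23 chromosomes that the lists covered, the 22 autosomes and X, with at most 12 regions on 1 chromosome (chromosome 1). Only 6 regions had another ND4 region within 100 kb. At 2 places listed regions overlapped, so the 83 regions marked 81 separate places. An IND.Extend region of 4 bp (signal 8.87) shared its right end with the 49 bp IND region near PHB1P3. The other overlap was a pair of IND.Extend regions at chr17:6203896-6203913 that differed by 1 base at the left end. No gene held 2 or more ND4 regions.

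The 11 DR regions were alike in geometry and ran from the lowest to the highest signal of the list. Each was 18 bp wide, lay on the minus strand and carried a further interval in the file, of 11 to 48 bp with a median of 25. None of the 11, and none of their further intervals, was found in the ND5.1, ND5.3 or ND6 lists. The further interval began 5 bases to the left of the region in 9 of 11 and 4 or 6 bases in the others. Its right end was not fixed, and ran from 12 bases inside the region to 25 bases beyond it. The DR classes of ND5.1 and ND6 had a like layout, with fixed widths of 14 and 12 bp. None of their 26 and 29 regions was in another list. In 25 of the 26 ND5.1 regions, all minus, the further interval reached 4 to 6 bases beyond the region on the same side. Relative to the strand, this held in ND6 for 14 of 15 plus and 13 of 14 minus regions.

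By signal, the DR region in TSHZ2 (36.7, chr20:53025824-53025841) came first, with a further interval of 48 bp. The region in STX8, a syntaxin of endosomal fusion (chr17:9401697-9401714), had 11.7. The regions in PLCXD2, a phospholipase-like gene (chr3:111720707-111720724), and LIMA1, an actin-binding protein gene (chr12:50196804-50196821), were close to each other at 8.11 and 7.80.

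Below these came LOC124901056 (5.51, chr5:126351129-126351146) and the nucleolar protein gene NOL4 (4.86, chr18:34144847-34144864). The lowest values were 2.68, at a region 1145 bp from LOC124903423 (chr14:50843462-50843479), and 2.62 in CFAP20DC-DT (chr3:59519816-59519833). The width of the further interval and the signal had a Spearman correlation of 0.909 over the 11 regions, against 0.348 over the 36 IND and 0.293 over the 35 IND.Extend regions. In the DR class of ND5.1 (26 regions) and ND6 (29 regions) it was 0.491 and 0.332. All points of a list share its libraries, so these values are descriptions. Of the 11, 10 lay in a gene and 8 in a protein-coding gene. The single DL region (chrX:46441982-46441999) was also 18 bp wide, was given as plus strand, had a signal of 5.90 at rank 51, and lay 1196 bp from the pseudogene GAPDHP65.

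**Figure D2:**
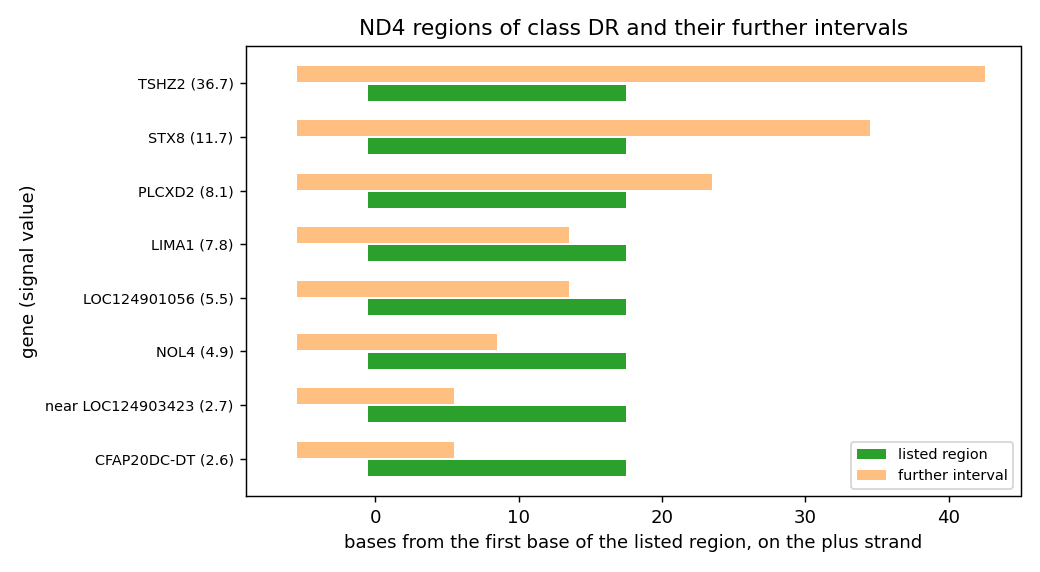
The 8 ND4 regions of class DR described by name (green, each 18 bp) and their further intervals (orange), in bases from the first base of the region on the plus strand, ordered by signal. The left ends of the further intervals lie 5 bases before the region in each of the 8, whereas the right ends vary. The regions of this class with offsets of 4 and 6 bases are not drawn.

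The list leaned to the minus strand, most of all in class DR. Of 83 regions, 55 were given as minus (66.3%, 55.1 to 76.3). Among them were 20 of 36 IND (55.6%, 38.1 to 72.1), 24 of 35 IND.Extend (68.6%, 50.7 to 83.1) and 11 of 11 DR (100%, 71.5 to 100). Without DL and DR the share was 44 of 71 (62.0%, 49.7 to 73.2), and this interval includes 50%. ND6 had 339 of 716 on minus (47.3%), which was 18.9 points lower (7.62 to 28.9, Fisher's exact test, adjusted p = 0.0034). ND5.1 had 294 of 539 (54.5%), 11.7 points lower, which missed the threshold (0.250 to 21.9, Fisher's exact test, adjusted p = 0.0853). As in the class tests, regions held in both lists of a pair entered on both sides. The difference of 13.0 points between IND.Extend and IND within ND4 did not pass (-9.26 to 33.5, Fisher's exact test, adjusted p = 0.330).

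The difference from ND6 was smaller within class IND and without DL and DR, and larger within class DR. Within class IND it was 8.91 points and did not pass (adjusted p = 0.308 by Fisher's exact test among the alternatives). Without DL and DR, in a family of 7 tests added after the values were seen, it was 15.3 points and also did not (Fisher's exact test, adjusted p = 0.0588). That comparison set IND and IND.Extend of ND4 against IND alone, since ND6 held no IND.Extend region. In the same family the DR class of ND4 differed from that of ND6, where 14 of 29 were minus (48.3%), by 51.7 points (20.6 to 68.6, Fisher's exact test, adjusted p = 0.0183). In ND5.1, 26 of 26 DR regions were minus, as in ND4 (Fisher's exact test, adjusted p = 1). All 13 DL regions of ND5.1 were minus too, whereas the single DL region of ND4 was plus. The file does not say whether the strand of a DR or DL region is that of the deaminated cytosine. By sharing, 41 of 55 regions in no other list (74.5%, 61.0 to 85.3) and 14 of 28 shared regions (50%) were minus. Within class IND the counts were 6 of 8 and 14 of 28. In ND5.1 the counts over all classes were 164 of 247 (66.4%) and 130 of 292 (44.5%). In ND6 they were 110 of 219 (50.2%) and 229 of 497 (46.1%). Shared regions were not tested against the others within a list.

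**Figure D3:**
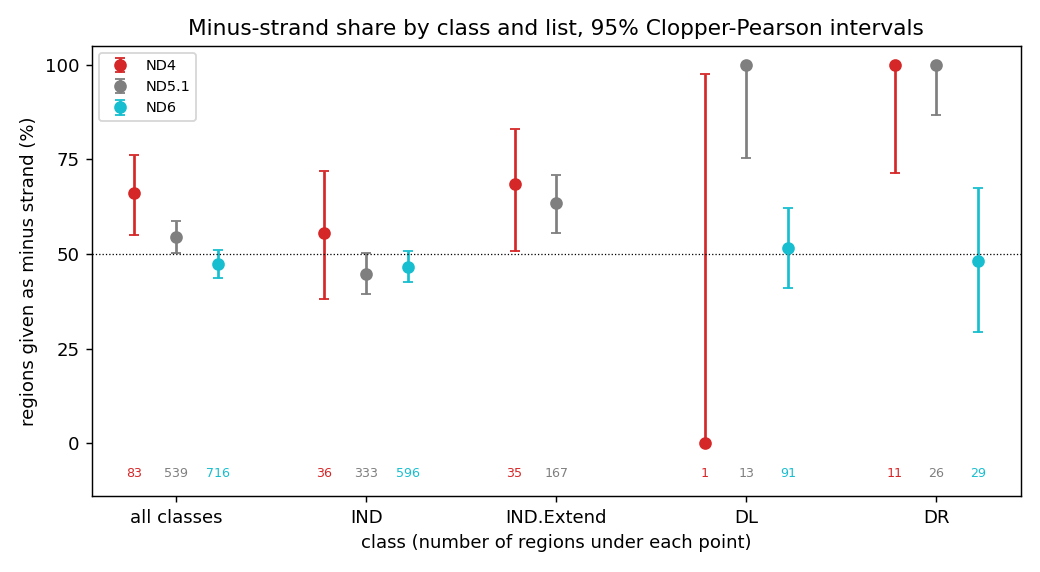
Share of regions given as minus strand (%) by class for ND4, ND5.1 and ND6, with 95% Clopper-Pearson intervals and the number of regions under each point. The ND4 point for DR is at 100%, over 11 regions, and the ND6 point at 48.3%, over 29.

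The regions that recurred in other lists were all of class IND. This was not particular to ND4, since IND made up 291 of 292 shared regions in ND5.1 and 497 of 497 in ND6. Of the 83, 28 overlapped a region of another list (33.7%, 23.7 to 44.9), and all 28 were among the 36 of class IND (77.8%, 60.8 to 89.9). In IND.Extend the count was 0 of 35, which allows a share of up to 8.57% if a count of 0 is taken to allow 3, and up to 10.0% by the Clopper-Pearson interval. Whether recurrence across editors entered into the classes is not stated, so sharing by class is a description. All 4 lists held 24 of the 28, ND5.3 alone held 3, and ND5.3 with ND6 held 1. Those with ND5.3 alone were the region in LAMA4-AS1, one in ITGB3BP, a centromere protein gene (5.28), and one 3842 bp from BEX4 (5.36). The one with ND5.3 and ND6 lay in LYPLAL1, a lysophospholipase-like gene (4.65). Within IND, sharing did not differ detectably between strands, at 14 of 20 on minus and 14 of 16 on plus (Fisher's exact test, adjusted p = 0.514). It also did not between regions in a gene, 14 of 19, and outside genes, 14 of 17 (Fisher's exact test, adjusted p = 0.695).

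The other lists lacked 55 ND4 regions, made up of 35 IND.Extend, 11 DR, 8 IND and 1 DL. The nearest region of another list to any of these lay 39856 bp away, so none was a near miss of the overlap rule. The 8 IND regions were the exception in their class and had a median signal of 7.22. The region near PHB1P3 (19.97) was highest, followed by one in RNF217, a ubiquitin ligase gene (11.8, chr6:125054981-125055013). Next came one 12 bp from LOC124909486 (8.21, chr3:113207343-113207384) and one in DIAPH1, a formin gene of actin assembly (7.95, chr5:141552359-141552385). The others lay 1283 bp from RTL9, a gene derived from a retrotransposon (6.48), in KIAA0319L, the gene of a receptor used by adeno-associated virus (5.25), in RCN2, a calcium-binding protein gene (5.096), and in HIGD2B (4.78).

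Shared regions were near the top of the other lists and in the lower part of the ND4 list. Of the 28, 19 lay in the lower part of ND4 when the list was split at its median signal. Their median rank was 21.5 among ND5.1 regions (2 to 326) and 20 among ND6 regions (1 to 366), but 53 of 83 in ND4 for the 24 regions held in all lists. Class IND, which held all 28, had 13 of its 36 regions in the upper part of ND4 and a median rank of 53. The 28 make up most of that class, so a comparison with the whole class cannot set them apart from it. Within IND their median rank in ND4 was 54.5 (median signal 5.46), against 39.5 (7.22) for the 8 regions in no other list. This difference was not tested. The IND regions of ND5.1 and of ND6 were divided by signal into 5 equal parts. ND4 held 21 of the 67 in the highest part of ND5.1 (31.3%, 20.6 to 43.8), at most 1 in each of the next 3 and 0 of 66 in the lowest, which allows up to 4.55% by the rule of 3 counts and 5.44% by the interval. In ND6 it held 23 of 120 in the highest part (19.2%, 12.6 to 27.4), 1 of 119 in each of the next 2, and 0 of 119 in each of the lowest 2, which allows up to 2.52% and 3.05% in the same way.

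**Figure D4:**
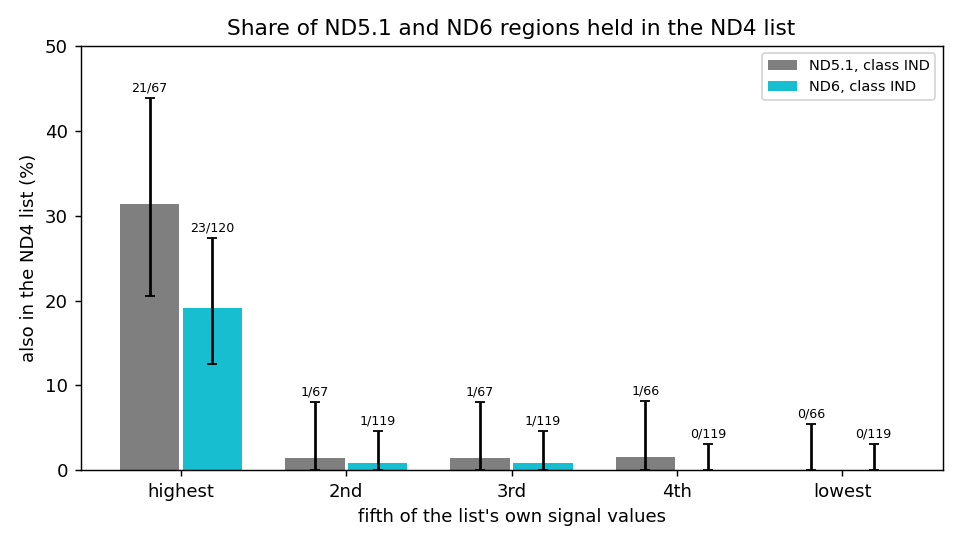
Share of class IND regions of ND5.1 and ND6 that the ND4 list also held (%), in 5 equal parts of each list's own signal, with 95% Clopper-Pearson intervals and counts over the bars. The bars of the highest part stand at 31.3% and 19.2%, and the others are under 2%.

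The strongest regions elsewhere were often weak in ND4. The region in GRK5, whose kinase acts on G protein-coupled receptors (chr10:119445511-119445546), ranked 1 in ND6 and 3 in ND5.1 but 57 in ND4, at 5.303. The region in AAK1, a kinase of clathrin-mediated endocytosis, ranked 8, 12 and 72 in the same order, and the one 866 bp from TRIM14 ranked 5, 6 and 61. Some kept a place in the upper part of ND4. The region in CORO2B, a coronin gene (chr15:68651256-68651277), ranked 3, 5 and 19, and one 8486 bp from LOC105377136 (chr21:32940622-32940639) ranked 4, 8 and 14. The region 2559 bp from LOC124901590 ranked 36, 17 and 13.

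Further regions of all 4 lists with an ND6 rank up to 50 had ND4 ranks from 21 to 75. Among them were regions 1032 bp from CASP8, a caspase gene of death receptor signalling (ND4 rank 21), in IFFO2 (30), 183 bp from SLC30A5 (43), in BLOC1S3, a gene of lysosome-related organelle biogenesis (47), in RAB5B, an early endosome GTPase gene (50), in IL16, a cytokine gene (53), and 18809 bp from ZBTB8A (53). Lower still were regions 2715 bp from LOC124903408 (57), in FAM221A (63), in GPR161, an orphan receptor gene of cilia (65), 73 bp from LINC01065 (71) and 18197 bp from RPL5P21 (75). One region was weak throughout, 302 bp from WASF1, an actin regulator gene, at rank 74 in ND4, 326 in ND5.1 and 366 in ND6.

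Over the 24 regions held in all lists, the Spearman correlation of signal was 0.345 between ND4 and ND5.1 and 0.854 between ND5.1 and ND6. Between ND4 and ND6 it was 0.134 over 25 regions. These values describe the lists' own scores at regions chosen for being in each list. Of 272 regions that ND5.1, ND5.3 and ND6 all held, ND4 had 24 and lacked 248. The strongest of the 248 by ND6 signal lay in STUM (rank 2 in ND6 and 4 in ND5.1), the pseudogene TUBB4BP7 (7 and 26) and SV2B, a synaptic vesicle protein gene (10 and 7). One 2668 bp from NDEL1 ranked 9 and 19.

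**Figure D5:**
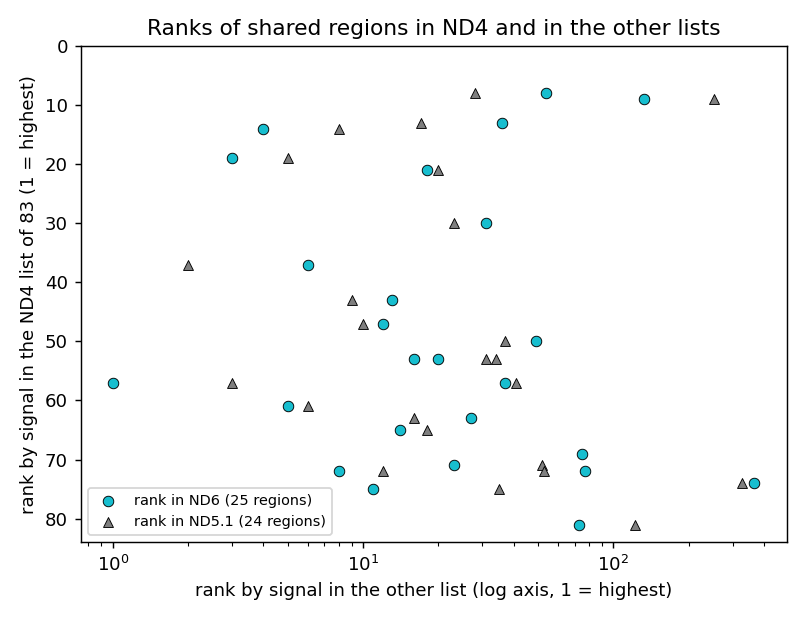
Rank of shared regions by signal in the ND4 list (vertical, of 83) against their rank in ND6 (circles, 25 regions) and ND5.1 (triangles, 24 regions), on a log axis. Points at low ranks of the other lists spread over most of the ND4 range, as for the region at ND6 rank 1 and ND4 rank 57.

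ND4 regions lay in genes of varied function, and their placement did not differ detectably from that of the other lists. In all, 50 of 83 lay in a gene (60.2%) and 44 in a protein-coding gene (53.0%, 41.7 to 64.1). The protein-coding share differed by 1.44 points from ND5.1, 9.15 points from ND5.3 (-2.20 to 20.2) and 8.18 points from ND6 (-3.06 to 19.2). Regions held in both lists of a pair entered on both sides here too, so the sides of a comparison were not independent. None of 15 comparisons of gene position passed Fisher's exact test (adjusted p = 1 for each). Of IND.Extend and IND regions, 18 of 35 and 18 of 36 lay in protein-coding genes, a difference of 1.43 points (Fisher's exact test, adjusted p = 1). Where the gene's strand was known and single, 13 of 33 regions were antisense to it (39.4%, 22.9 to 57.9), against 47.0% in ND5.1 and 48.7% in ND6 (Fisher's exact test, adjusted p = 0.459 for each, added after the values were seen).

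IND.Extend regions of high and middle signal reached several well-known genes. PARP14, an ADP-ribosyltransferase gene, held one at 15.0 (chr3:122705434-122705480). RHOA, the small GTPase of the cytoskeleton, held one at 10.4 (chr3:49397913-49397928). HELB, a DNA helicase gene, held one at 9.49 (chr12:66308701-66308728), and ACVR2A, an activin receptor gene, one at 8.81 (chr2:147848582-147848605). These 4 were chosen after their values were seen.

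Regions close to gene bounds were few. Within 1 kb of either bound of a protein-coding gene lay 12 of 83 (14.5%), and 9 (10.8%, 5.08 to 19.6) lay within 1 kb of a protein-coding gene's start. ND5.1, ND5.3 and ND6 had 10.4%, 9.82% and 11.3% near such starts. For 2 ND4 regions no starts were used. Upstream of starts lay the regions of PPM1L (74 bp, signal 6.55), SMIM30 (75 bp, 4.83), DNAJC2 (180 bp, 4.78) and SLC30A5 (183 bp, 7.04), whose sequences are shown, and those of WASF1 (302 bp) and SUOX, the sulfite oxidase gene (937 bp). Downstream lay those of PLAC1, a placental gene (607 bp), RCN2 (802 bp) and NOMO2 (989 bp). The DNAJC2 region also lay within the bounds of PMPCB, a subunit gene of the mitochondrial processing peptidase. An IND.Extend region of signal 7.10 lay 65 bp from PPP3CB, a calcineurin catalytic subunit gene, inside its antisense gene.

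Genes of 4 fixed lists were looked up among the genes hit. Of 87 nuclear genes for subunits of oxidative phosphorylation, 12 for mtDNA maintenance and expression, 16 for uracil and base excision repair and 13 for chromatin architecture, none held an ND4 region or lay within 1 kb of one. The ND4 regions lay in 54 distinct genes in all, 45 of them protein-coding, which is 0.227% of all protein-coding genes. At that share a count of 0 in lists of these sizes says nothing particular about their genes.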

How the data were processed

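The reads had been handled with Bowtie2, cutadapt, Picard and SAMtools on build hg38, per the submitters' processing notes. Tool versions, and how regions were found, classed and pooled, are not stated in any source used here. Per the file headers, the ND4, ND5.1 and ND6 lists give each region's chromosome, start, end, strand, an identifier with its class, a further interval and a signal value, a score deposited by the authors with no stated normalization. The ND5.3 list gives positions only, so strand, class and signal were compared with ND5.1 and ND6.

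Coordinates were read as counting from 1, both ends included, since region ends then fall on C. Regions of 2 lists were shared where they overlapped by at least 1 bp. Gene bounds were those of RefSeq on GRCh38.p14 (58554 genes on the autosomes and X, 19839 protein-coding). Sequences and 34984 starts of 27197 genes came from RefSeq promoter windows. Exon structure was not analysed here. Shares have 95% Clopper-Pearson intervals and differences have Newcombe intervals. Differences were tested with two-sided Fisher's exact tests and Benjamini-Hochberg adjustment within each family, at 0.05. The scripts were tested on simulated data. They used Python 3.11.15, pandas 2.3.3, NumPy 2.4.6, SciPy 1.17.1 and matplotlib 3.10.9.

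The members, gene lists and tests were chosen with earlier results of these data known. Regions were named by rule: ND4 signal ranks 1 to 10, all DL and DR regions, IND regions in no other list, regions in all 4 lists with an ND6 rank up to 50, regions within 1 kb of a protein-coding gene's bound or in a promoter window, genes with 2 or more regions, and genes of the fixed lists. A few regions named by it are not reported here. Alternatives took the upper part of the signal, class IND only, regions in no other list, other gene windows, overlapping regions counted once and lists without DL and DR, the last 2 added after the data were seen.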

Additional observations from a re-analysis of the deposited data

How the results depend on the processing

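Over 27 results and 99 alternative settings, 78 kept their direction and their side of the threshold. In the upper part of the ND4 signal the shared share was 21.4%. The minus-strand difference from ND6 was 8.91 points in class IND and 15.3 points without DL and DR, neither past the threshold. It passed among regions in no other list, at 24.3 points (Fisher's exact test, adjusted p = 0.00403). With the upper part of the ND4 signal it also passed, at 21.7 points (Fisher's exact test, adjusted p = 0.0203). Among regions in no other list, the class differences from ND5.1 were -2.46 points for IND, -3.57 for IND.Extend and 9.47 for DR, the DR difference from ND6 was 6.76, none past the threshold, and IND.Extend minus IND in minus-strand share was -6.43. In the upper part of the signal, IND.Extend exceeded ND5.1 by 32.2 points and passed (Fisher's exact test, adjusted p = 9.38e-05), and the DL difference from ND6 was -5.28 and did not. Fewer regions entered each of these settings, and the cause was not tested further.

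Gene position differences, none past the threshold in any setting, turned direction as follows. With class IND only, and the whole ND5.3 list since it has no classes, they were -3.85 points (in a gene, against ND5.3), -4.10 (against ND6), 4.204 and 4.44 (near a gene bound, against ND5.1 and ND6) and -2.93 (promoter window, against ND5.1). In the upper part of the signal they were -0.846 (near a gene bound, against ND5.3), -0.897, -0.0429 and -1.36 (near a protein-coding bound, against ND5.1, ND5.3 and ND6) and -4.64 (promoter window, against ND5.1). With a window of 500 bp the difference near a gene bound from ND5.3 was -1.37. Counting overlapping regions once changed no call.

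No paired analysis was possible because each list gives 1 value per region over its libraries and none for a replicate. For the same reason no library was left out, the depth behind a region is unknown, and the dead DddA, single-array and input libraries were not set against the listed regions.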

Other observations

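Pairs of neighbouring or near-identical genes each held an IND.Extend region that no other list had, a pattern noticed after the values were seen. HCAR2 and its neighbour HCAR3, which encode receptors for hydroxylated carboxylic acids, held regions 13435 bp apart, at signal values 21.4 and 11.9, both on the minus strand. They lay 174 and 184 bp inside the nearest gene bound. NOMO1 and NOMO2, nearly identical genes on chromosome 16, held regions of 19 bp each, at 7.72 on the minus strand and 13.8 on the plus strand, 1051 and 1004 bp from a gene bound. Reads from such copies can be assigned to either, so whether each pair reflects 1 place or 2 was not tested.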
